A study of Mus musculus with 2 samples.

Results

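The expression of 7 genes of tryptophan breakdown and of the aryl hydrocarbon receptor was followed through the immune cells of mouse melanoma tumors. The 7 genes, Ido1, Il4i1, Kmo, Kynu, Ahr, Ahrr and Tiparp, were taken by symbol from the 31253 genes listed, and all were found in both libraries. B16-F10 melanoma cells (200000, a C57BL/6 mouse line) had been injected under the skin of the right flank of Irg1+/+ mice or of Irg1-/- mice, which carry a whole-body deletion of Irg1 backcrossed onto C57BL/6J. At day 10, pieces of 100 mm3 from the tumors of 3 mice per genotype were pooled, digested and sorted for Cd45, and the sorted cells were profiled as 1 BD Rhapsody single-cell library per genotype. The study's methods describe young adult female mice for such tumors. Each genotype is therefore a single pool with no replicate, the mice within a pool cannot be told apart, and no difference between genotypes could be tested.

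After removal of cells with 10% or more of their unique molecular identifiers (UMIs, counted mRNA molecules) on mitochondrial genes, 6284 cells with 42105693 UMIs were kept in the Irg1+/+ library and 5794 cells with 35307041 UMIs in the library labelled Irg1-/-. The median depth was 4528 and 4594.5 UMIs per cell. Ptprc, which encodes Cd45, had a UMI in 88.0% of the Irg1+/+ cells and in 91.5% of the others, and 36 cell barcodes occurred in both libraries. Levels are given as CPM, the UMIs of a gene per 1000000 UMIs summed over the cells of a class, with exact Poisson 95% intervals that cover counting error only and not the spread between mice. CPM was not divided by transcript length, and levels are compared between cells and not between genes.

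Irg1, now named Acod1, encodes the enzyme that makes itaconate, and its UMIs (chr14:103046977-103056573, GRCm38) were present in both libraries. There were 3696 Acod1 UMIs (87.8 CPM, 85.0 to 90.7) in the Irg1+/+ library and 3805 (108 CPM, 104 to 111) in the other. The highest class was the neutrophils in both, with 2336 and 1796 CPM. The bases missing from the deleted allele are not given in the sources used here and the UMIs mark the 3′ end of a transcript, so these counts do not check the genotype, and the second library is called by its label.

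Tryptophan is opened by Ido1 to the kynurenine precursor and is oxidised by Il4i1, a secreted amino acid oxidase. Kmo (kynurenine 3-monooxygenase, in the outer mitochondrial membrane) and Kynu (kynureninase) then carry kynurenine down the branch that ends in NAD. Kynurenine and several indole products are ligands of the aryl hydrocarbon receptor, Ahr, a transcription factor that pairs with Arnt and binds DNA at the core GCGTG. Ahrr (the Ahr repressor) and Tiparp (a mono-ADP-ribosyltransferase) are textbook targets of Ahr that dampen it in turn. In tumors the route is known for depriving T cells of tryptophan and for exposing them to kynurenine, and dendritic cells and macrophages are its usual sources among immune cells.

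The promoters of 4 of the 7 genes were at hand, as RefSeq sequence of GRCm38.p6 from 250 bases before to 50 bases after the start of a RefSeq transcript, and they were searched on both strands for GCGTG. The Ahrr window (chr13:74292282-74292581, minus strand) held 3 matches, a number reached by 3.91% of all 32851 promoters. The Tiparp window (chr3:65528197-65528496, plus strand) held 1 match, on the reverse strand, as CACGC. No match was found for Kmo (chr1:175631943-175632242) or Il4i1 (chr7:44836038-44836337), and 32.4% of all promoters held at least 1. The RefSeq starts of Kmo and Il4i1 lie 11812 and 19901 bases inside the GENCODE spans given for these genes here, so windows at the outermost start of each gene were not searched. The matches are printed 5′ to 3′ on the strand of the gene with the core in capitals, because Ahrr and Tiparp are the members known as Ahr targets, and each is named by the distance of its core from the start.
Ahrr -107: ttgaaagggcGCGTGgcaggcaggg
Ahrr -82: acaaggatgtGCGTGcgccctctgc
Ahrr -27: ggggcggctcGCGTGctggggtggg
Tiparp -170: ccgtccggagCACGCgcacgggagg
The interferon site TTCNNNGAA, which can be read on either strand as the same letters, was in none of the 4 windows and in 8.30% of all. A match of letters is no evidence that a factor binds there, and the promoters of Ido1, Kynu and Ahr were not analysed here.

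Cells were assigned to 23 classes by gates on marker genes, and the names stand for the gates. The gates took 5274 Irg1+/+ cells and 4992 cells of the library labelled Irg1-/-, while 14.1% and 11.7% of the cells passed no gate and 1.96% and 2.11% passed the gates of several lineages and were left out. The dendritic gates held 1041 and 1001 cells (cDC1, cDC2, mature migratory dendritic cells and plasmacytoid dendritic cells), the monocyte gates 837 and 1053, and the macrophage gates 1307 and 1030. The composition of these groups differed between the libraries. cDC1 made up 29.7% of the dendritic cells in the Irg1+/+ library and 21.9% in the other, and cDC2 23.6% and 38.1%. Interferon-activated monocytes were 22.3% and 31.0% of the monocytes, and Vegfa macrophages 41.9% and 25.3% of the macrophages. Between the libraries, 15 classes were compared. The other 8 are given by their values in each library only. Of these, 4 held under 40 cells in a library or both (Lyve1 macrophages, mast cells, melanoma cells and cycling macrophages). In 5, again with the cycling macrophages, gate markers of another class outnumbered their own among the 10 genes with the highest fold in a library. These also included the MHC class II C1q, Ccl24 and other C1q macrophages and the other T cells. Orders of levels are given among the 19 classes with at least 40 cells in both libraries. Immunoglobulin genes, which are no gate markers, were 6 of the 10 genes with the highest fold in the Irg1+/+ classical monocytes, and 4 of the 507 cells held 12327 of their 13153 immunoglobulin UMIs.

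Kmo, Kynu, Ahr and Tiparp were well counted, and Ido1, Il4i1 and Ahrr were rare. Across all kept cells Kmo stood at 55.3 CPM (53.1 to 57.6, 2330 UMIs) in the Irg1+/+ library and at 80.3 CPM (77.4 to 83.3, 2835 UMIs) in the library labelled Irg1-/-. Kynu had 15.3 and 21.3 CPM (646 and 751 UMIs). Ahr had 97.5 (94.6 to 101) and 86.8 CPM (83.7 to 89.9), and Tiparp 217 and 210 CPM. Kmo and Kynu were thus higher and Ahr lower in the library labelled Irg1-/-, and Tiparp was nearly level. The dendritic cells, 16.6% and 17.3% of the cells, held 72.2% and 62.1% of the Kmo UMIs and 71.7% and 62.6% of the Kynu UMIs, but 39.3% and 36.8% of those of Ahr and 16.1% and 17.3% of those of Tiparp.

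**Figure D1:**
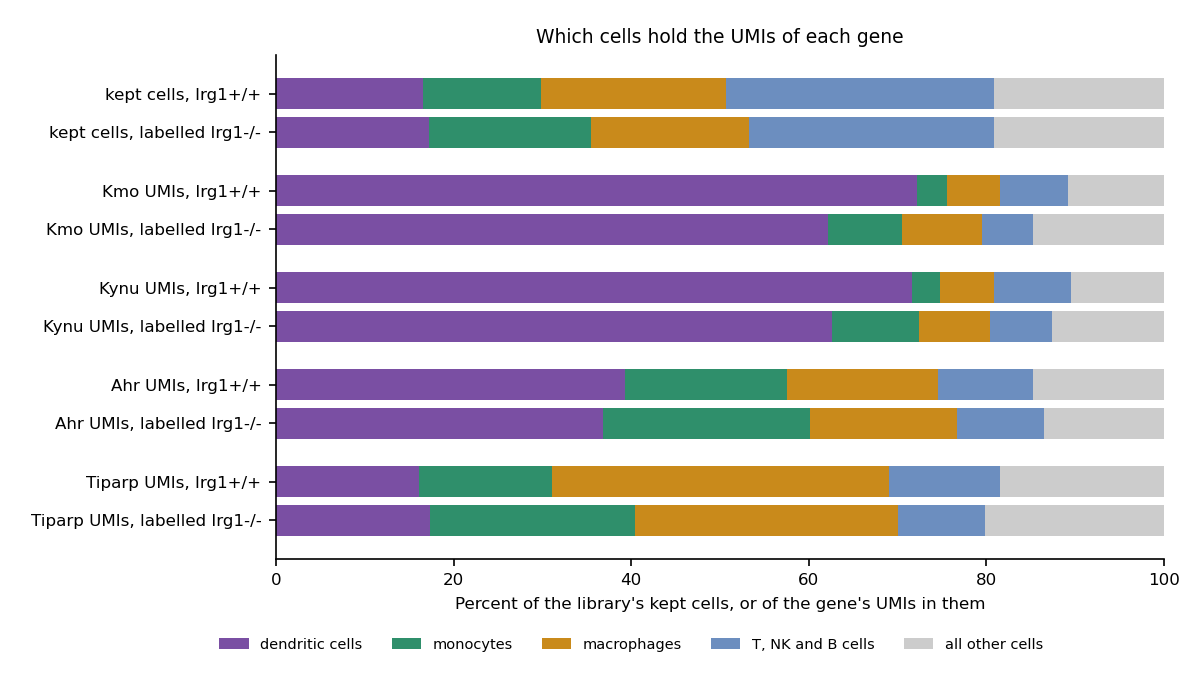
Percent of kept cells and percent of the UMIs of Kmo, Kynu, Ahr and Tiparp (horizontal axis) that fell to dendritic cells, monocytes, macrophages, T, NK and B cells and all others, as stacked bars for each library (vertical axis). The dendritic cells were 16.6% and 17.3% of the cells and held 72.2% and 62.1% of the Kmo UMIs, while the macrophages held 38.0% and 29.6% of the Tiparp UMIs.

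Ido1 and Il4i1, the enzymes that begin the breakdown, were hardly detected. Ido1 (ENSMUSG00000031551, chr8:24584136-24597009, minus strand) had 30 UMIs in 27 cells of the Irg1+/+ library (0.712 CPM, 0.481 to 1.02) and 27 UMIs in 17 cells of the library labelled Irg1-/- (0.765 CPM, 0.504 to 1.11). Of these, 12 and 10 lay in dendritic cells, 6 in mature migratory dendritic cells of each library. Dendritic cells with an Ido1 UMI were 0.961% and 0.799% of their group, against 0.423% and 0.125% of the T, NK and B cells, which serve as the background here. The median depth was 6348 and 6395 UMIs in the dendritic cells and 3484 and 2783 in the T, NK and B cells. In the Irg1+/+ library the log2 ratio of dendritic over T, NK and B cells was 1.09 with an interval that held 0 (-0.29 to 2.61), and in the other the 10 and 2 UMIs were too few for a ratio. Between the libraries the dendritic level was 1.53 CPM (0.791 to 2.67) and 1.35 CPM (0.649 to 2.49), a difference not detectable at this depth. The 9 Ido1 UMIs of the macrophages in the library labelled Irg1-/- came from 4 cells.

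Il4i1 (ENSMUSG00000074141, chr7:44816387-44840809, plus strand) had 2 and 4 UMIs in whole libraries. Mature migratory dendritic cells held 2 of them in each library (0.785 and 0.870 CPM). None lay in monocytes, macrophages or T, NK and B cells, where 3 UMIs would have been 0.731 and 0.540 CPM in monocytes and 0.244 and 0.338 CPM in macrophages. Il4i1 shares 97 of its 4080 exonic bases (2.38%) with Nup62 on the same strand, which had 2193 and 1506 UMIs, and how the authors assigned reads of shared bases was not given in the sources used here. Ido2, a relative of Ido1, had 5 and 2 UMIs.

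Kmo (ENSMUSG00000039783, chr1:175620381-175662116, plus strand) was a gene of plasmacytoid cells, cDC2 and cDC1. In plasmacytoid dendritic cells it reached 625 CPM (545 to 713, 220 UMIs) in the Irg1+/+ library and 478 CPM (401 to 566, 135 UMIs) in the library labelled Irg1-/-. cDC2 had 343 CPM (317 to 370) and 355 CPM (334 to 378), and cDC1 237 CPM (220 to 255) and 246 CPM (225 to 269). The order plasmacytoid cells, cDC2, cDC1 was the same in both libraries, with each step wider than its counting interval. Mature migratory dendritic cells, which have left the sampling state of cDC1 and cDC2, stood far lower, at 36.1 CPM (29.1 to 44.3) and 56.6 CPM (47.3 to 67.2). B cells ranked below cDC1 and above the mature migratory cells, from which their interval was clear in the library labelled Irg1-/-, at 76.1 CPM (38.0 to 136) and 148 CPM (95.9 to 219), from 11 and 25 UMIs. Kmo had a UMI in 90.2% and 84.0% of the plasmacytoid dendritic cells, in 68.3% and 73.2% of cDC2, in 64.1% and 62.1% of cDC1 and in 5.55% and 7.38% of the T, NK and B cells. When each cell was thinned to 2000 UMIs, cDC2 with a Kmo UMI were 42.9% and 46.0%, cDC1 36.3% and 33.7%, and T, NK and B cells 2.28% and 3.64%.

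**Figure D2:**
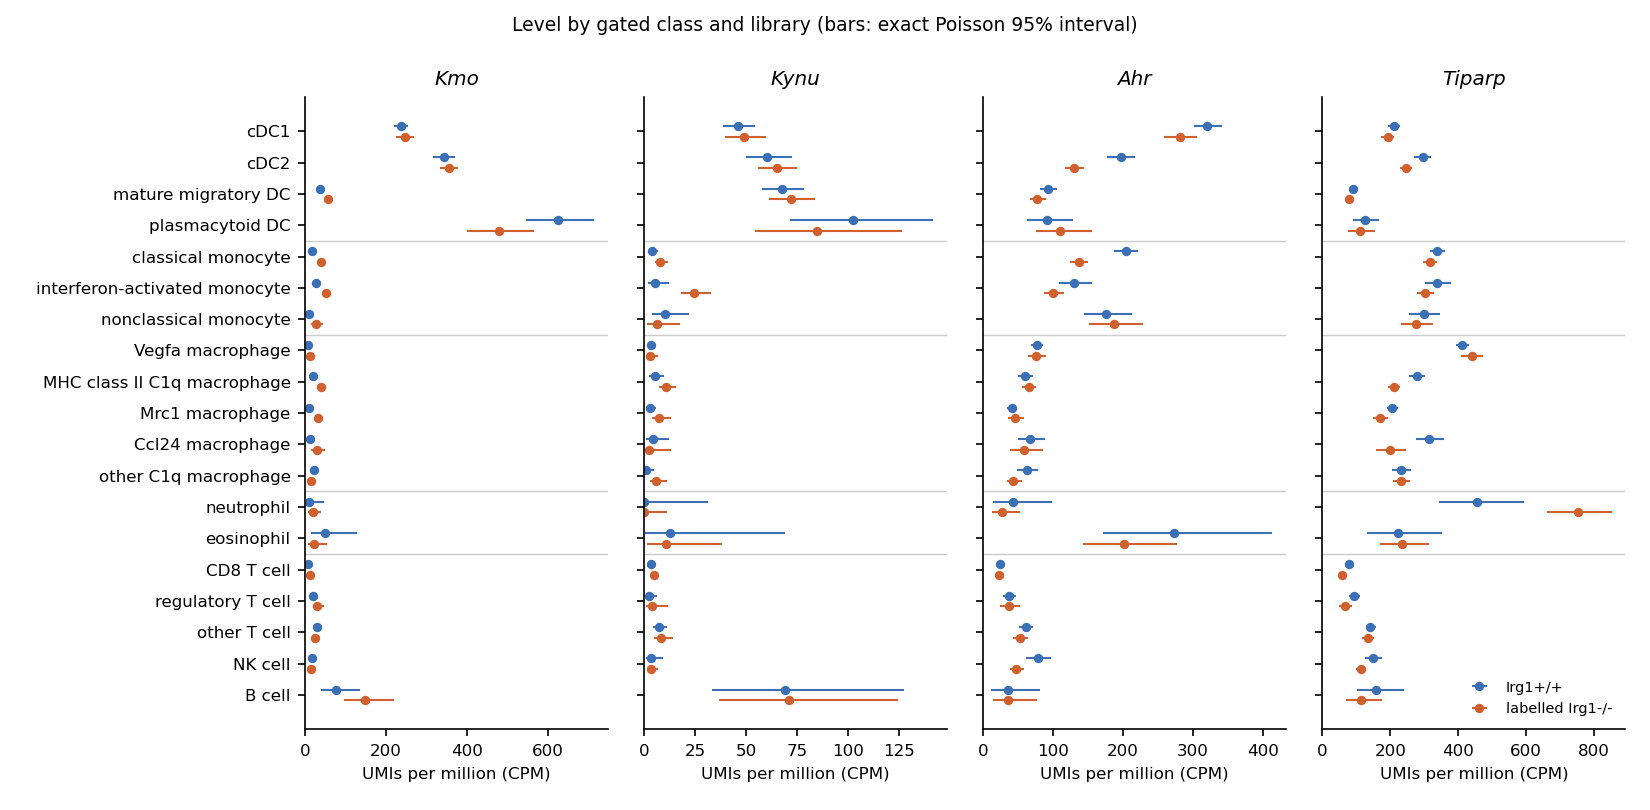
Levels of Kmo, Kynu, Ahr and Tiparp in CPM (horizontal, linear axis) in the marker classes (vertical) of the Irg1+/+ library and the library labelled Irg1-/-, with exact Poisson 95% intervals as bars. Kmo was highest in plasmacytoid dendritic cells (625 and 478 CPM), Ahr in cDC1 (321 and 281 CPM) and Tiparp in neutrophils (455 and 753 CPM).

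Between the libraries the Kmo level was nearly the same in cDC1 and cDC2 and higher in monocytes and macrophages of the library labelled Irg1-/-. The log2 ratio of the library labelled Irg1-/- over the Irg1+/+ library was 0.06 (-0.11 to 0.23) in cDC1 and 0.05 (-0.09 to 0.20) in cDC2, and over the processing alternatives it ranged from -0.20 to 0.06 and from -0.05 to 0.24. Classical monocytes had 45 UMIs (17.6 CPM, 12.8 to 23.6) and 127 UMIs (40.1 CPM, 33.4 to 47.7), a log2 ratio of 1.18 (0.68 to 1.71), where 1.73% of genes were at least 2-fold higher. Without the 4 cells rich in immunoglobulin UMIs it was 1.19 (0.69 to 1.73). Interferon-activated monocytes had 27.3 CPM (17.8 to 39.9) and 52.0 CPM (42.2 to 63.4), a log2 ratio of 0.91 (0.30 to 1.62) whose interval stayed above 0 under 5 of 9 processing alternatives. Over all monocytes the level was 18.8 CPM (14.8 to 23.4) and 42.9 CPM (37.6 to 48.7), a 2.28-fold difference (log2 1.19, 0.82 to 1.58). Of all genes counted in monocytes, 1.23% were at least 2-fold higher in the library labelled Irg1-/- and 2.09% at least 2-fold lower.

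Among macrophages the Kmo level was 11.4 CPM (9.57 to 13.4) in the Irg1+/+ library and 2.52 times as high in the other, at 28.8 CPM (25.3 to 32.5) (log2 1.34, 1.03 to 1.65), against a background of 1.72% of genes at least 2-fold higher and 1.99% at least 2-fold lower. Mrc1 macrophages had 9.73 CPM (6.52 to 14) and 31.3 CPM (23.0 to 41.6), a log2 ratio of 1.67 (0.99 to 2.40), with 2.17% of genes at least 2-fold higher in this class. Vegfa macrophages, the class with the lowest compared macrophage level, had 6.95 and 12.2 CPM, a ratio of 0.82 whose interval held 0 (-0.08 to 1.68). MHC class II C1q macrophages, not compared between libraries, stood at 19.7 CPM (14 to 27.1) and 39.9 CPM (32.7 to 48.2), and the other C1q macrophages at 20.9 and 13.9 CPM. With only the Vegfa and Mrc1 gates, the macrophage levels were 8.14 and 21.1 CPM, a log2 ratio of 1.37 (0.85 to 1.91).

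These levels were low beside those of cDC1 and cDC2. T, NK and B cells had 15.6 and 19.5 CPM of Kmo, so the Irg1+/+ macrophages lay below them and the Irg1+/+ monocytes close to them, while both groups lay above them in the library labelled Irg1-/-. With each cell thinned to 2000 UMIs the Irg1+/+ macrophages lay above the T, NK and B cells instead (log2 0.15), with an interval that held 0 (-0.63 to 0.89). After thinning, 2.42% and 4.91% of macrophages and 2.60% and 6.08% of monocytes held a Kmo UMI. The UMIs were spread over many cells: the 5 monocytes with the most held 20.8% and 15.5% of them, and the 5 such macrophages 22.1% and 20.4%. Monocytes with 3 or more Kmo UMIs numbered 3 and 18, and such macrophages 6 and 23.

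The ratio of the monocytes exceeded that of the dendritic cells by 1.04 on the log2 scale (0.65 to 1.42), and that of the macrophages did so by 1.18 (0.87 to 1.5). The dendritic level was 18.8 times the macrophage level in the Irg1+/+ library, where 10.8% of genes were at least 2-fold higher in dendritic cells, and 8.27 times in the other, where 9.63% were. Within the dendritic cells Kmo was higher in the mature migratory cells of the library labelled Irg1-/- (log2 0.65, 0.25 to 1.05) and lower in its plasmacytoid cells (-0.38, -0.71 to -0.07). The summed dendritic ratio was 0.15 (0.05 to 0.25) with a smaller share of cDC1 and a larger share of cDC2 in that library, and 0.045, with an interval that held 0 (-0.05 to 0.14), when each class was weighted by its share of UMIs in the Irg1+/+ library. CD8 T cells had 7.80 and 11.7 CPM (0.59, -0.04 to 1.21).

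Markers of dendritic cells were measured in the same monocytes and macrophages. The cDC2 list summed to 202 and 230 CPM in monocytes (log2 0.18, 0.06 to 0.31), with 6 of its 7 genes higher in the library labelled Irg1-/- and Klrd1 the most abundant (48.9 and 56.2 CPM). It summed to 518 and 445 CPM in macrophages, mostly Mgl2 (302 and 178 CPM). The cDC1 list stood at 645 and 766 CPM in monocytes, mostly Naaa (485 and 613 CPM), and at 721 and 720 CPM in macrophages. The plasmacytoid list had 10.2 and 13.1 CPM in monocytes (0.35, -0.20 to 0.95) and 16.9 and 22.3 CPM in macrophages (0.40, 0.11 to 0.69), and none of the genes of these lists was at 0. Among monocytes without a UMI of any of 6 dendritic genes (Flt3, Cd209a, Xcr1, Clec9a, Ccr7, Siglech), a selection made after the data were seen, Kmo stood at 17.9 and 30.9 CPM (0.78, 0.26 to 1.33), and among such macrophages at 8.80 and 20.2 CPM (1.19, 0.56 to 1.87). These genes are sparse, so a cell without a UMI of them can still hold dendritic RNA, and its part in the differences was not tested.

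**Figure D3:**
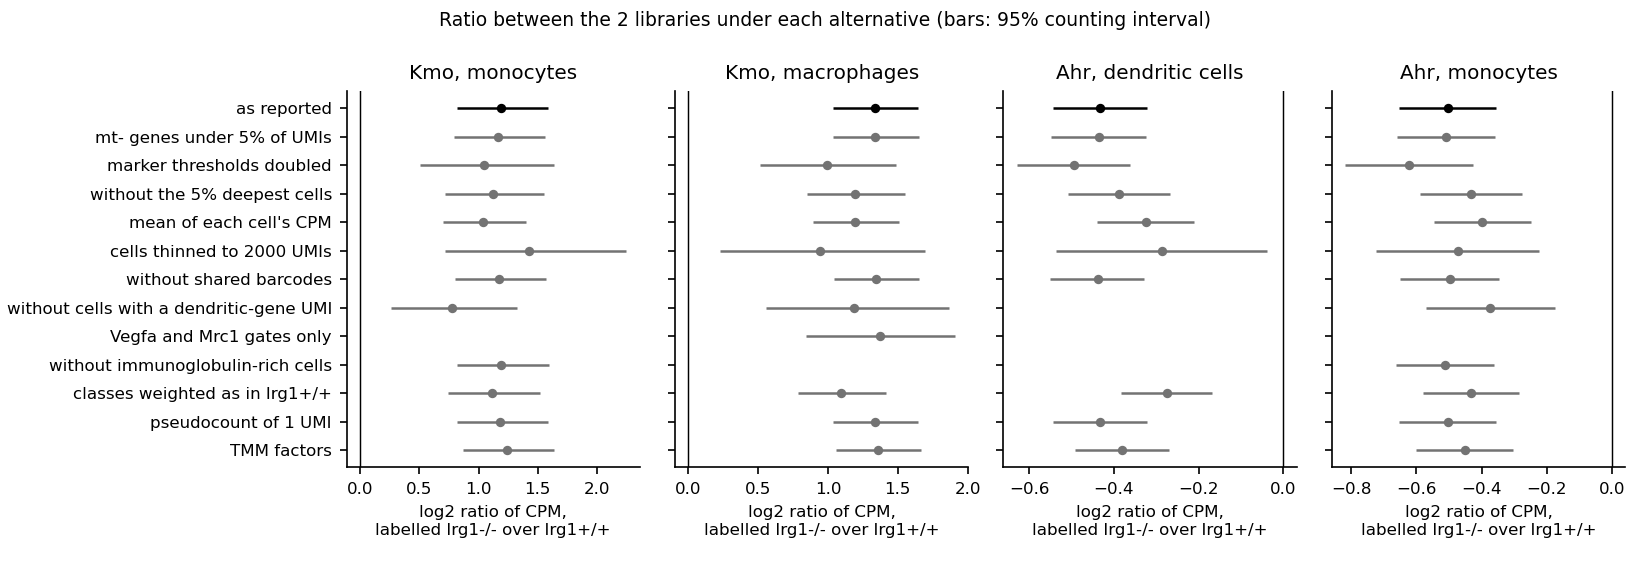
Log2 ratio of the library labelled Irg1-/- over the Irg1+/+ library (horizontal, with 95% counting intervals as bars) for Kmo in monocytes and macrophages and for Ahr in dendritic cells and monocytes, under each processing alternative (vertical). Kmo stayed above 0 in all alternatives shown, from 0.78 to 1.43 in monocytes and from 0.94 to 1.37 in macrophages, and Ahr stayed below 0.

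Kynu (ENSMUSG00000026866, chr2:43555329-43682715, plus strand) followed Kmo in most classes, with the mature migratory dendritic cells and the B cells as exceptions. Plasmacytoid dendritic cells had 102 CPM (71.6 to 142) and 85.0 CPM (54.5 to 126), mature migratory dendritic cells 67.5 and 71.8 CPM, cDC2 60.2 and 65.0 CPM and cDC1 46.2 and 48.8 CPM. Where Kmo was several times lower in mature migratory cells than in cDC1 (log2 ratio of cDC1 over mature cells 2.70 and 2.12), Kynu was higher there (-0.55 in both libraries). Neutrophils had no Kynu UMI in either library, which allows up to 31.1 and 11.2 CPM. B cells, which ranked below cDC1 for Kmo, had 10 and 12 Kynu UMIs (69.2 and 71.2 CPM). These values lay above those of cDC2 and cDC1 in both libraries, with wide intervals (33.2 to 127 and 36.8 to 124 CPM).

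In dendritic cells the Kynu level was 59.1 CPM (53.8 to 64.7) and 63.6 CPM (58.0 to 69.6), a log2 ratio of 0.11 whose interval held 0 (-0.08 to 0.30). Monocytes again differed, with 20 UMIs (4.87 CPM, 2.97 to 7.52) in the Irg1+/+ library and 74 UMIs (13.3 CPM, 10.5 to 16.7) in the other, a 2.69-fold difference (1.43, 0.72 to 2.24). The interferon-activated monocytes had 5 UMIs (5.24 CPM, 1.70 to 12.2) and 46 UMIs (24.4 CPM, 17.9 to 32.6), a log2 ratio of 2.10 (0.89 to 3.91), with 2.2% of genes at least 2-fold higher in this class. Classical monocytes had 3.52 and 7.88 CPM (1.11, 0.02 to 2.45). Within the library labelled Irg1-/- the interferon-activated monocytes exceeded the classical ones by 1.62 on the log2 scale (0.90 to 2.39). Macrophages had 3.17 CPM (2.25 to 4.33) and 6.77 CPM (5.16 to 8.71), a 2.13-fold difference (1.09, 0.49 to 1.71), beside 4.93 and 6.26 CPM in T, NK and B cells. With only the Vegfa and Mrc1 gates the interval held 0 (3.28 and 4.97 CPM, 0.61, -0.42 to 1.58), as it did for macrophages without the 6 dendritic genes (0.81, -0.20 to 1.91). The monocyte ratio exceeded the dendritic ratio by 1.32 (0.58 to 2.06) and the macrophage ratio did so by 0.98 (0.37 to 1.59).

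The other enzymes of the route gave fewer UMIs. Of 16 listed, 7 reached 20 UMIs over both libraries in dendritic cells and none of these differed 2-fold (background 1.57% higher and 2.02% lower). In monocytes 4 were counted and in macrophages 6, and in each the 2 that were at least 2-fold higher were Kmo and Kynu. The median log2 ratios of the counted enzymes were -0.17, 0.58 and 0.07. Haao, which acts just after Kynu, had 39.9 and 40.7 CPM in dendritic cells (0.03, -0.20 to 0.26), with the highest class again the plasmacytoid cells (79.5 and 53.1 CPM). It had 20.7 and 20.3 CPM in monocytes (-0.03), so it did not share the difference seen for Kmo and Kynu there, and 7.48 and 10.6 CPM in macrophages (0.50, 0.07 to 0.93). Qprt, which leads on to NAD, had 21 and 8 UMIs in macrophages (-0.87, -2.30 to 0.31), and Aadat, which turns kynurenine to kynurenic acid, had no UMI in the dendritic cells, monocytes or macrophages.

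Ahr (ENSMUSG00000019256, chr12:35497974-35535038, minus strand) was highest in cDC1, eosinophils, cDC2 and classical and nonclassical monocytes. In the Irg1+/+ library cDC1 had 321 CPM (301 to 342), eosinophils 273 CPM (171 to 413, 22 UMIs), classical monocytes 203 CPM (186 to 222), cDC2 196 CPM (177 to 217) and nonclassical monocytes 176 CPM, and neighbours in this order did not differ beyond their counting intervals. The library labelled Irg1-/- had 281 CPM (258 to 306) in cDC1, 201 CPM (143 to 277) in eosinophils, 187 CPM in nonclassical monocytes, 136 CPM (124 to 150) in classical monocytes and 130 CPM (117 to 144) in cDC2, with cDC1 apart from the rest. CD8 T cells were the lowest of the 19 classes in both, at 23.6 and 22.6 CPM. Macrophages stood between, at 56.7 CPM (52.6 to 61.1) and 57.3 CPM (52.4 to 62.5), so the dendritic level was 3.63 and 2.66 times the macrophage level.

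Unlike the enzymes, Ahr was lower in several classes of the library labelled Irg1-/-. Across dendritic cells its level was 206 CPM (196 to 216) and 153 CPM (144 to 162), a log2 ratio of -0.43 (-0.54 to -0.32), where 16.9% of all genes counted had an interval below 0. cDC1, the dendritic class with the most Ahr, held 38.7% and 26.3% of the dendritic UMIs. With each class weighted by its share of UMIs in the Irg1+/+ library, an alternative chosen after the data were seen, the dendritic ratio was -0.27. cDC2 showed the widest dendritic difference (-0.59, -0.80 to -0.38), with an Ahr UMI in 60.2% of cDC2 in the Irg1+/+ library and in 46.2% in the other, while cDC1 differed by -0.19 (-0.34 to -0.04), a difference that reversed to 0.13 when each cell was thinned to 2000 UMIs. The cDC2 ratio lay below the cDC1 ratio by -0.40 (-0.66 to -0.15). Mature migratory cells had 93.1 and 77.0 CPM (-0.27, -0.56 to 0.01). None of these reached 2-fold.

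Monocytes showed the same direction as dendritic cells, with 182 CPM (170 to 196) and 129 CPM (119 to 138) of Ahr (-0.50, -0.65 to -0.35), where 13.9% of all genes counted had an interval below 0. Classical monocytes had a log2 ratio of -0.58 (-0.77 to -0.39) and interferon-activated monocytes of -0.38 (-0.71 to -0.03), whereas nonclassical monocytes had 176 and 187 CPM (0.09). NK cells, with 77.5 CPM (61.0 to 97.1) and 47.3 CPM (38.1 to 58.0), differed by -0.71 (-1.17 to -0.25). Macrophages as a whole did not show it: the ratio was 0.01 (-0.15 to 0.18) over all, -0.01 in Vegfa and 0.19 in Mrc1 macrophages. Of the macrophage classes not compared between libraries, the other C1q macrophages stood at 61.9 and 43.0 CPM, the MHC class II C1q class at 59.7 and 64.8 CPM, the Ccl24 class at 66.4 and 58.3 CPM, the cycling class at 24.5 and 24.2 CPM and the Lyve1 class at 21.6 and 70.0 CPM (6 and 31 UMIs). The summed macrophage ratio exceeded the dendritic ratio by 0.45 (0.25 to 0.65). Among 13 classes with enough Ahr UMIs, 5 had an interval below 0 (cDC1, cDC2, classical and interferon-activated monocytes, NK cells) and 0 above.

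A list of 12 immediate early and heat shock genes known to respond to tissue dissociation was higher in the dendritic cells, monocytes and macrophages of the library labelled Irg1-/-. It summed to 6796 and 8716 CPM in dendritic cells (log2 0.36), 8051 and 10791 CPM in monocytes (0.42, 0.40 to 0.44, 12 of 12 genes higher) and 10247 and 11978 CPM in macrophages (0.23). Its part in the differences of Kmo, Kynu and Ahr was not tested.

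**Figure D4:**
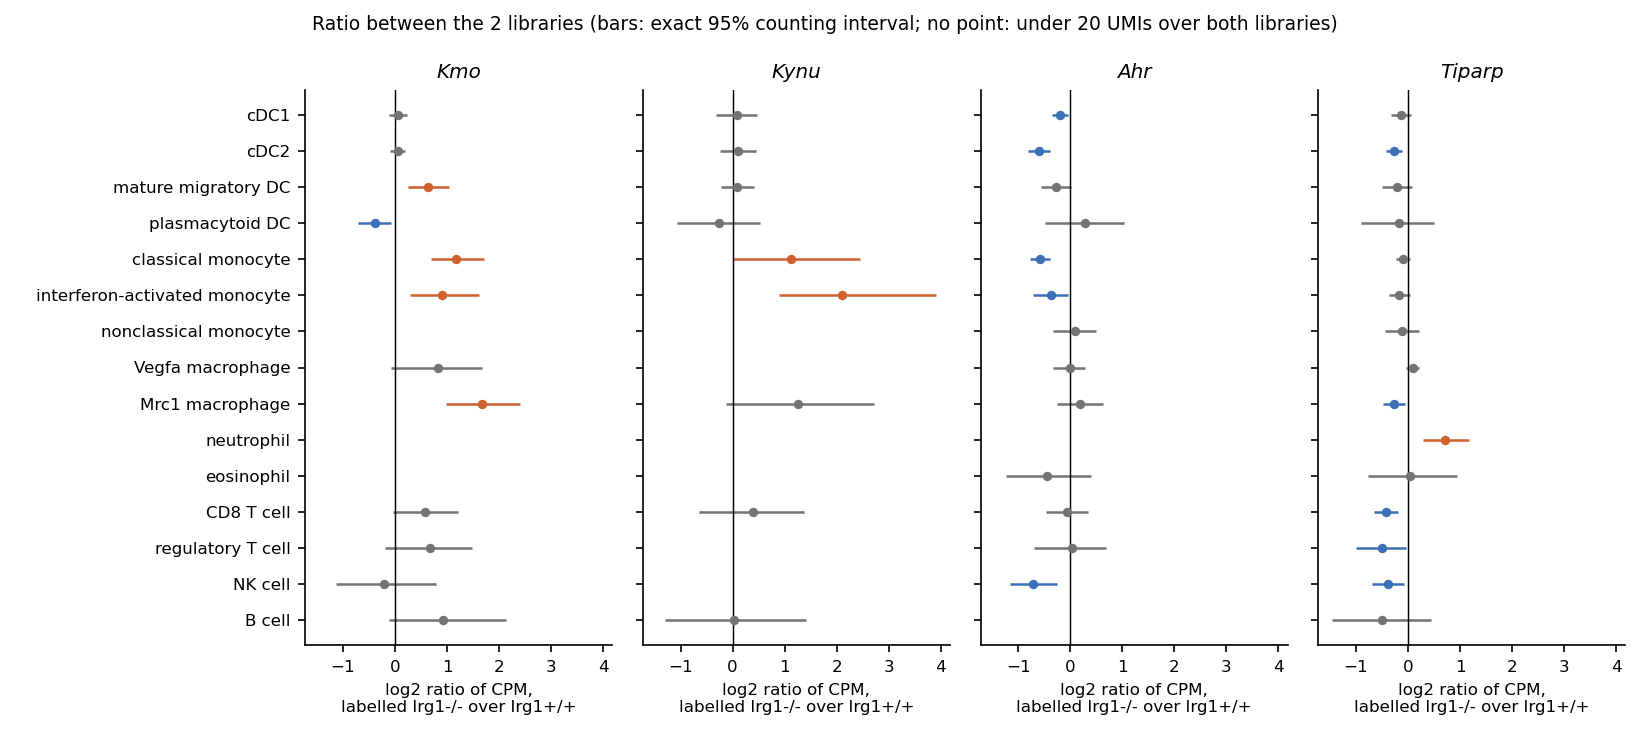
Log2 ratio of the library labelled Irg1-/- over the Irg1+/+ library (horizontal) for Kmo, Kynu, Ahr and Tiparp in the 15 compared classes (vertical), with 95% counting intervals as bars, orange where the interval lies above 0, blue where below and grey where it holds 0. Of the counted classes, Kmo lay above 0 in 4 and below in 1, Kynu above in 2, Ahr below in 5, and Tiparp above in 1 and below in 5. Classes under 20 UMIs have no point.

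Of 8 listed genes of Ahr and its partners, 6 were counted in dendritic cells, 6 in monocytes and 7 in macrophages, and 0 differed 2-fold in any of these groups. Their median log2 ratios were -0.06, 0.01 and 0.01, beside -0.05, -0.04 and -0.04 for all genes counted. Arnt, with which Ahr binds DNA, had 49.6 and 56.6 CPM in dendritic cells (0.19, -0.01 to 0.39) and 85.5 CPM in the monocytes of both libraries (0.00, -0.20 to 0.20).

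Of 9 listed textbook targets of Ahr, Tiparp alone was counted in dendritic cells and monocytes, and Tiparp and Ahrr in macrophages. Cyp1a1, Cyp1a2 and Aldh3a1, detoxifying enzymes that Ahr switches on, had 0 UMIs in the dendritic, monocyte and macrophage classes, and Cyp1b1 had at most 3 in any of these groups. Ahrr (ENSMUSG00000021575, chr13:74211118-74292331, minus strand) had 26 UMIs in 22 cells of the Irg1+/+ library and 39 UMIs in 33 cells of the library labelled Irg1-/-, of which 61.5% and 53.8% lay in macrophages. Over all kept cells its level was 0.617 and 1.10 CPM, a log2 ratio of 0.83 (0.09 to 1.61). Macrophages had 16 UMIs (1.30 CPM, 0.743 to 2.11) and 21 UMIs (2.37 CPM, 1.47 to 3.62), a log2 ratio of 0.85 whose interval held 0 (-0.14 to 1.90). They came from the MHC class II C1q (5 and 10 UMIs), Mrc1 (4 and 2), cycling (4 and 3), other C1q (2 and 5), Ccl24 (1 and 0) and Lyve1 macrophages (0 and 1), with 0 in Vegfa macrophages of both libraries. The dendritic cells, with more Ahr than macrophages, had 7 and 5 Ahrr UMIs. In the library labelled Irg1-/- their Ahrr level lay below that of macrophages (log2 -1.70, -3.57 to -0.36), and in the Irg1+/+ library the interval held 0 (-0.49, -2.07 to 0.82). T, NK and B cells had 1 and 3 UMIs.

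Tiparp (ENSMUSG00000034640, chr3:65528410-65555518, plus strand), the other target among the members, had another distribution than Ahr. Neutrophils had 455 CPM (342 to 594, 54 UMIs) in the Irg1+/+ library and 753 CPM (662 to 852, 248 UMIs) in the library labelled Irg1-/-, and Vegfa macrophages 413 CPM (393 to 433) and 440 CPM (410 to 473). The neutrophils could not be told from the Vegfa macrophages in the former (log2 0.16, -0.28 to 0.53) and exceeded them in the latter (0.78, 0.56 to 0.98). Interferon-activated monocytes (339 and 301 CPM) and classical monocytes (338 and 317 CPM) came next in both libraries, and CD8 T cells were lowest with 77.2 and 57.7 CPM. Within the macrophages the Vegfa class exceeded the Mrc1 class by 1.01 and 1.37 on the log2 scale, and within the dendritic cells cDC2 (295 and 245 CPM) exceeded the mature migratory cells (91.1 and 78.3 CPM) by 1.69 and 1.64. Dendritic cells as a whole stood at 188 and 174 CPM, 0.667 and 0.703 times the macrophage level, the opposite of the order for Ahr.

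Among the compared classes Tiparp differed most between the libraries in neutrophils, where the log2 ratio was 0.71 (0.29 to 1.18). This is under 2-fold, the fold that 4.92% of genes reached or passed in that class, and the share past a smaller fold is not given here. Scaling by trimmed means raised the neutrophil ratios of all genes by 0.275. The dissociation list also differed most in that class, at 13596 and 20929 CPM (0.62), and its part in the Tiparp difference was not tested. Macrophages had 283 CPM (273 to 292) and 247 CPM (237 to 258), a ratio of -0.19 (-0.27 to -0.11). With the Vegfa and Mrc1 gates only, it was -0.05 and its interval held 0 (-0.15 to 0.06). Vegfa macrophages, the macrophage gate with the highest Tiparp level in both libraries, were 41.9% and 25.3% of the macrophages, and with the classes weighted as in the Irg1+/+ library the ratio was -0.046 (-0.12 to 0.03). Of the macrophage classes not compared between libraries, the cycling class stood at 110 and 184 CPM, the Ccl24 class at 314 and 198 CPM, the MHC class II C1q class at 278 and 211 CPM, the Lyve1 class at 141 and 167 CPM and the other C1q class at 232.0 and 231.5 CPM. In the cycling class a single cell held 24 of the 134 Tiparp UMIs in the Irg1+/+ library and 51 of the 106 in the other. cDC2 had a ratio of -0.27 (-0.43 to -0.11), Mrc1 macrophages of -0.27 (-0.49 to -0.06), CD8 T cells of -0.42 (-0.66 to -0.18), regulatory T cells of -0.50 (-1.0 to -0.04) and NK cells of -0.39 (-0.70 to -0.08).

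Further lists around the route were read in the same way. Of 8 genes of tryptophan uptake and loading, 7 were counted and 0 differed 2-fold in dendritic cells, monocytes or macrophages (median log2 ratios -0.06, -0.06 and -0.14). Slc7a8, a carrier of large neutral amino acids, was higher in macrophages (221 and 195 CPM) than in monocytes (111 and 121 CPM) and dendritic cells (36.0 and 32.8 CPM). Among the monocytes the interferon-activated class had 188 and 128 CPM. Slc36a4, a tryptophan and proline carrier, was lower in several groups of the library labelled Irg1-/-: macrophages (34.5 and 23.0 CPM, -0.58, -0.83 to -0.34), monocytes (-0.47, -0.87 to -0.08), T, NK and B cells (-0.58, -0.98 to -0.19) and mature migratory dendritic cells (-1.47, -2.59 to -0.55). In cDC1 it was higher there (8.58 and 15.4 CPM, 0.84, 0.04 to 1.66). Of 2 listed sensors, both counted and neither past 2-fold, Eif2ak4, the kinase that reads amino acid starvation, had log2 ratios of -0.19, -0.22 and -0.18 in the same groups, each with an interval that held 0. Gpr35, a receptor for which kynurenic acid is a proposed ligand, was highest in monocytes (509 and 526 CPM). It was higher in mature migratory cells (0.56, 0.32 to 0.80), cDC1 (163 and 231 CPM, 0.50, 0.31 to 0.69), Mrc1 macrophages (0.43, 0.22 to 0.64) and nonclassical monocytes (0.31, 0.07 to 0.56) of the library labelled Irg1-/-, and nearly level in cDC2 (305 and 301 CPM, -0.02, -0.17 to 0.14).

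The last list held 12 genes of interferon gamma signalling, which is known to switch on Ido1, and of costimulation. All 12 were counted in each group, with intervals above 0 for 4 and below 0 for 3 in dendritic cells, for 5 and 3 in monocytes and for 7 and 3 in macrophages. Among all genes counted the intervals lay above 0 for 11.7%, 9.34% and 14.6% and below 0 for 16.9%, 13.9% and 19.3%, in the same order. The median log2 ratios of the list were 0.06, 0.03 and 0.20. Irf1, its early transcription factor, had 458 and 844 CPM in dendritic cells (0.88) and reached 2-fold in cDC1 (316 and 670 CPM, 1.08, 0.96 to 1.21), where 1.7% of genes were at least 2-fold higher. Socs1, which restrains the signal, had 43.9 and 112 CPM in cDC1 (1.34, 1.03 to 1.67) and 62.1 and 128 CPM in monocytes (1.05, 0.84 to 1.26), where it was the 1 gene of the list past 2-fold. Ifngr1, a chain of the interferon gamma receptor, had 216 and 229 CPM in dendritic cells (0.09, -0.01 to 0.18). Cd86, a costimulatory ligand, had 426 and 376 CPM in dendritic cells (-0.18, -0.25 to -0.11). Ido1 stood at 4 and 2 UMIs in cDC1.

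**Figure D5:**
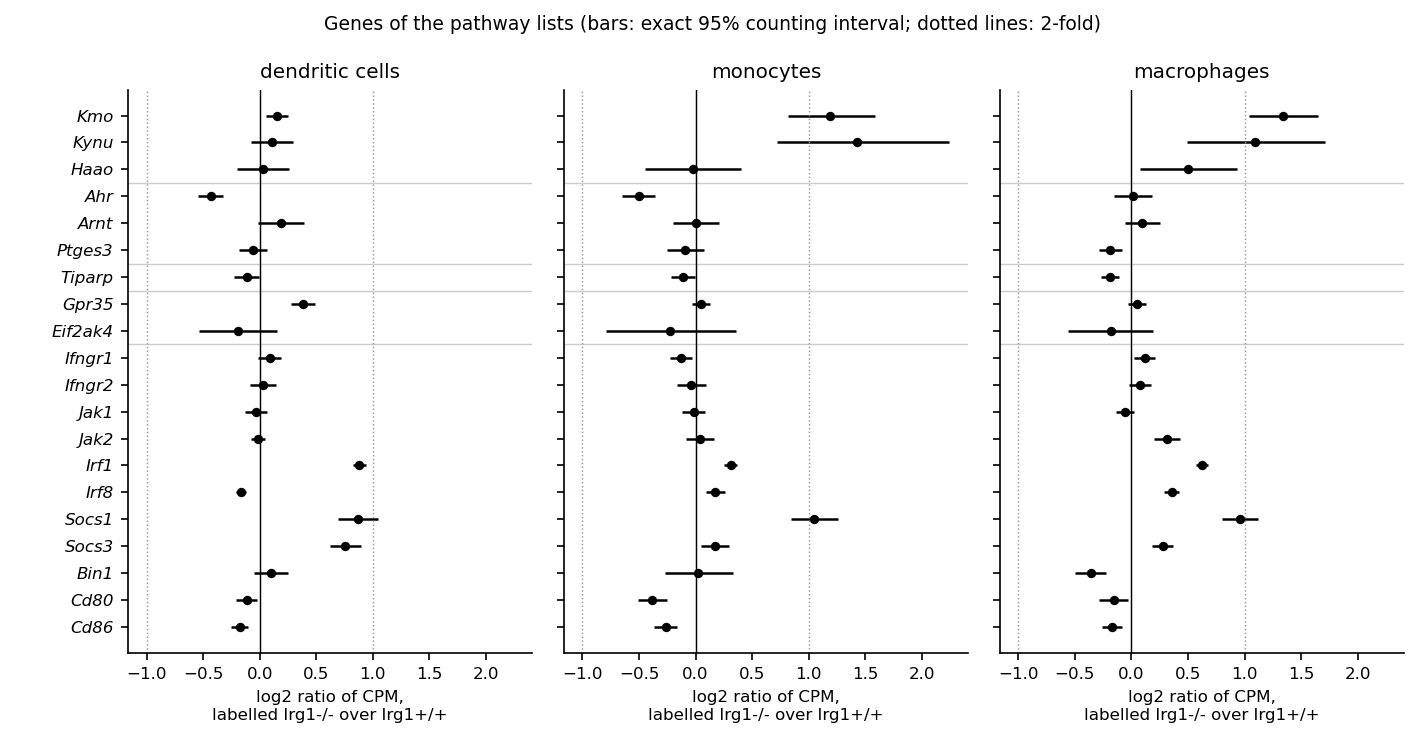
Log2 ratio of the library labelled Irg1-/- over the Irg1+/+ library (horizontal, 95% counting intervals as bars) for genes of the enzyme, receptor, target, sensor and interferon lists (vertical) in dendritic cells, monocytes and macrophages, with dotted lines at 2-fold. Kmo and Kynu passed 2-fold in monocytes and macrophages and not in dendritic cells, and Socs1 did so in monocytes.

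Across 38 points, the classes with at least 40 cells in both libraries taken once per library, Kmo and Kynu had similar profiles of log2 CPM (Pearson r = 0.842). The points share their libraries and differ in depth, so this is a description. The genes most like Kmo among 10737 were Bcl11a (0.843), Kynu, H2-Oa (0.819), Rnase6 (0.804) and Ppm1m (0.803), and those most like Kynu were Kmo, H2-Oa (0.835), Dapp1 (0.821), Haao (0.817) and Dpp4 (0.807). Ahr was closest to Slk (0.847), Cyp27a1 (0.762), Lipe (0.749) and Vcl (0.747). Tiparp was closest to Nlrp3 (0.906), the inflammasome sensor, with 2319 and 3827 CPM in neutrophils, and to Emilin2 (0.895), Tpd52 (0.881), Tnf (0.875) and Card19 (0.874). The profiles of Ahr and Tiparp had r = 0.342.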

How the data were processed

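The authors deposited raw UMI counts per gene and cell for 1 library per genotype (6408 cells and 43617546 UMIs from Irg1+/+ mice, 5896 cells and 36432067 UMIs labelled Irg1-/-). Their processing notes name CASAVA 1.8, UMI-tools, GRCm38, Ensembl release 100 and Seurat. Gene positions are those of GENCODE release 21 of the mouse. Cells with mitochondrial genes at 10% or more of UMIs (124 and 102) were removed. Classes were gated on at least 3 UMIs of marker genes whose thresholds were set after the data were seen, as was the dissociation list. No doublet caller was run, and cells passing gates of several lineages were left out. UMIs were summed per class and scaled to CPM. Ratios carry a pseudocount of 0.5 UMIs and exact conditional binomial 95% intervals, shares Clopper-Pearson intervals, and genes needed 20 UMIs over both libraries. For the mean CPM per cell and the weighted classes the binomial formula was applied to rescaled counts, so those intervals are approximate. Differences between the ratios of different classes carry normal 95% intervals on the log scale, which are approximate where UMIs are few. Intervals cover counting error only. The text names the members, all genes of the lists with 20 UMIs in the class described, the 5 genes with the most similar profile per member (at least 200 UMIs), and Acod1 (a few genes that this rule takes are not reported here), with a few listed genes under that minimum added after their values were seen. The members and lists were chosen with earlier results of these data known. The code was tested on simulated data. Python 3.11.15 with scipy 1.17.1 and, for the trimmed mean factors only, edgeR 4.0.16 were used.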

Additional observations from a re-analysis of the deposited data

Results flagged for a closer look

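Each result here is a log2 ratio of the library labelled Irg1-/- over the Irg1+/+ library that stood on the other side of 0 from the ratio of the same gene in another class, with both counting intervals clear of 0. The difference between the classes was not tested across samples, since each genotype is a single pool. For Kmo the ratio was -0.38 in plasmacytoid dendritic cells, against 0.65 in mature migratory dendritic cells, 1.18 in classical monocytes, 0.91 in interferon-activated monocytes and 1.67 in Mrc1 macrophages. For Tiparp it was 0.71 in neutrophils, against -0.27 in cDC2, -0.27 in Mrc1 macrophages, -0.42 in CD8 T cells, -0.50 in regulatory T cells and -0.39 in NK cells. Not every one of these intervals stayed clear of 0 under the processing alternatives: for Kmo it did so under 6 of 8 in plasmacytoid cells, 7 of 8 in mature migratory cells, 5 of 9 in interferon-activated monocytes and 7 of 9 in Mrc1 macrophages, and for Tiparp under 7 of 8 in neutrophils, 6 of 8 in cDC2 and CD8 T cells, 6 of 9 in Mrc1 macrophages and 7 of 8 in regulatory T cells and NK cells. The plasmacytoid and neutrophil classes that stand alone in these contrasts are small, with 61 and 50 and with 52 and 154 cells.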

How the results depend on the processing

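With 1 library per genotype leaving out a library was not possible, and no mouse-to-mouse spread is known. No paired analysis was possible because each genotype has 1 library. The alternatives were mitochondrial genes under 5%, gates at double the marker threshold, leaving out the deepest 5% of cells per class, the mean CPM per cell, thinning to 2000 UMIs, leaving out shared barcodes, a pseudocount of 1 UMI and trimmed mean factors. Added after the data were seen were monocytes and macrophages without 6 dendritic genes, monocytes without 4 cells of 100 or more immunoglobulin UMIs, the Vegfa and Mrc1 gates alone, and the classes of a group weighted by their UMI shares in the Irg1+/+ library. Kmo kept an interval above 0 in monocytes under 11 of 11, in macrophages under 11 of 11 and in dendritic cells under 8 of 9, Ahr one below 0 in dendritic cells under 9 of 9 and in monocytes under 11 of 11. Kynu kept one above 0 in monocytes under 11 of 11 and in macrophages under 8 of 11, and Tiparp one below 0 in macrophages under 9 of 11.

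For dendritic cells, monocytes and macrophages as wholes, the ratios between libraries that left their main interval were, under thinning, Kmo in dendritic cells (0.27) and macrophages (0.94), Kynu in dendritic cells (-0.14) and Ahr in dendritic cells (-0.29) and macrophages (-0.17). Kmo moved to 0.99 in macrophages with stricter gates and to 0.78 in monocytes without the dendritic genes, and Tiparp to -0.045 in macrophages with the Vegfa and Mrc1 gates. With the classes weighted as in the Irg1+/+ library, Kmo moved to 0.045 and Ahr to -0.27 in dendritic cells, and Tiparp to -0.046 in macrophages. The log2 ratio of dendritic cells over macrophages (Irg1+/+ first) moved for Kmo to 3.63 in the library labelled Irg1-/- with stricter gates, to 3.34 there without the deepest cells, to 3.91 in the Irg1+/+ library with thinning, to 4.59 and 3.55 without the dendritic genes and to 4.71 and 3.49 with the Vegfa and Mrc1 gates. Kynu moved to 4.95 in the Irg1+/+ library with stricter gates. Ahr moved to 2.17 and 1.70 with stricter gates, 1.33 and 1.02 by mean CPM, 1.32 and 1.2 with thinning and 1.69 in the Irg1+/+ library without the dendritic genes. Tiparp moved to -0.43 and -0.38 with stricter gates, -0.80 and -0.76 by mean CPM, -0.82 and -0.64 with thinning, -0.77 and -0.73 without the dendritic genes and -0.78 and -0.85 with the Vegfa and Mrc1 gates. The causes were not tested.

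Reversed values were the Ahr ratio of cDC1 with thinning (0.13), and between classes Kmo in MHC class II C1q over Mrc1 macrophages (-0.21, mean CPM, Irg1+/+) and in macrophages over T, NK and B cells (0.15, thinned, Irg1+/+), Ahr in nonclassical over classical monocytes (-0.26, stricter gates, labelled Irg1-/-), eosinophils over neutrophils (-0.75, thinned, labelled Irg1-/-) and dendritic cells over monocytes (-0.16, thinned, Irg1+/+), and Tiparp in eosinophils over neutrophils (0.22, thinned, Irg1+/+) and monocytes over macrophages (-0.030, Vegfa and Mrc1 gates, labelled Irg1-/-). Genes at least 2-fold higher and lower numbered 178 and 229 in dendritic cells, 126 and 213 in monocytes and 199 and 231 in macrophages. With 100 UMIs as the minimum they were 60 and 54, 32 and 26, and 55 and 81, with no minimum 1663 and 2006, 1827 and 1861, and 1823 and 2089, and at 1.5-fold 568 and 754, 447 and 712, and 594 and 765. Among the ratios between libraries of single classes, 18 values under an alternative lay outside the main interval beside the reversed one. Depth limits Ido1, Il4i1 and Ahrr, which had too few UMIs for a ratio in any single class.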

Other observations

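Cells that passed no gate, which enter only the levels over all kept cells, held 199 Kmo UMIs (8.54% of the gene's total) in the Irg1+/+ library and 387 (13.7%) in the library labelled Irg1-/-, where such cells were 14.1% and 11.7% of all. Lyve1 macrophages had 6 Kmo UMIs in 17 cells (21.6 CPM) and 37 in 43 cells (83.5 CPM).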
